A study of Mus musculus with 2 samples.

Results

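The whey acidic protein (WAP) family is described here through 7 genes, Wfdc2, Wfdc3, Wfdc12, Wfdc15b, Wfdc17, Wfdc18 and Slpi, which were taken by name from the 31053 genes counted in single cells of the mouse mammary gland. All 7 were present. The cKO library came from K8-CreERT2;miR-200c/141-flox/flox mice and the Ctrl library from miR-200c/141-flox/flox mice, both C57BL/6, both treated with tamoxifen and both sampled 4 weeks later, with mammary cells enriched by FACS. The floxed alleles and the tamoxifen were therefore common to both libraries, and the Cre was the difference in genotype. The promoter of the luminal keratin gene K8 (Krt8) drives this Cre, so its deletion is directed at luminal cells. The age given is 8 weeks in one label and 8 to 10 weeks at the injection in another, and the number of mice pooled in a library is not given. With 1 library per group there was no test between groups, and the intervals below are 95% counting intervals that say nothing of the spread between mice.

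WAP-domain proteins are small secreted proteins held together by disulfide bonds. Many of them inhibit serine proteases or kill bacteria, and the family is named after Wap, a major whey protein of rodent milk. In the mammary gland the ducts hold hormone-sensing luminal cells, with receptors for estrogen, progesterone and prolactin, luminal progenitors of the milk lineage, and an outer basal layer of contractile myoepithelium. The question asked of these data was which family member marks which of these lineages in each library.

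The cKO library held 5438 cells with a median of 13905 unique molecular identifiers (UMIs, each standing for 1 counted RNA molecule) and the Ctrl library 3389 cells with a median of 19799. Only 6 cell barcodes occurred in both. Cells were placed in classes by marker genes, none of them a family member. The gate gave 1192 cKO and 563 Ctrl hormone-sensing-like cells, 753 and 513 luminal-progenitor-like cells, 741 and 941 basal-like cells, 386 and 92 blood-endothelial-like cells, and 99 and 12 lymphatic-endothelial-like cells. A further 887 cKO and 562 Ctrl luminal cells carried both luminal marker sets, at a median of 29457 and 49239 UMIs per cell. Whether these are pairs of cells was not tested, and they are kept apart. All 8 hormone-sensing markers, 5 of 6 luminal-progenitor markers, all 9 basal markers and all 5 lymphatic markers were highest in their own class in both libraries, and 4 of 7 blood-endothelial markers were highest in that class. Gate genes were 4 of the hormone-sensing, 3 of the progenitor, 4 of the basal, 4 of the lymphatic and all 7 blood-endothelial markers. The place of those genes was largely set by the gate, so they are no separate check of the classes. The libraries separated within classes: of the hormone-sensing-like cells, 870 in cKO lay in cluster 1 and 160 in cluster 8, whereas 472 in Ctrl lay in cluster 12. Of the basal-like cells, 649 in cKO lay in cluster 6 and 883 in Ctrl in cluster 5. Markers of other cell types were not at 0. In hormone-sensing-like cells the 6 fibroblast markers summed to 337 counts per 1000000 UMIs (CPM) in cKO and 374 in Ctrl. In luminal-progenitor-like cells they summed to 2.78 and 3.40. The 7 markers of T and NK cells summed to 39.4 and 7.49 in hormone-sensing-like cells and to 97.6 and 56.1 in basal-like cells. The 7 myeloid markers summed to 11.9 and 4.16 in hormone-sensing-like cells. The 5 neutrophil markers summed to 48.9 and 26.7 in luminal-progenitor-like cells. The part of these markers in the results was not tested. Genotype, mouse, dissociation and library cannot be told apart in any difference below.

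On chromosome 2 of GRCm38 lie 5 members, in the order Wfdc12 (164189231 to 164190608, minus strand), Wfdc15b (164214454 to 164221660, minus), Slpi (164354070 to 164389095, minus), Wfdc2 (164562413 to 164568510, plus) and Wfdc3 (164731180 to 164745931, minus). Wfdc17 (83703991 to 83706268) and Wfdc18 (83709015 to 83711348) are neighbours on the plus strand of chromosome 11. The longest annotated transcripts of this pair, of 533 and 521 bases, were identical in 77.6% of aligned positions and shared an unbroken run of 30 bases, while no other pair of members shared a run over 14 bases. Wfdc12 overlaps an antisense gene, A730032A03Rik, which had 0 UMIs in cKO and 2 in Ctrl among all kept cells.

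The deleted microRNAs are shown because the design rests on them. The mature forms, credited to RefSeq, are written with the seed (bases 2 to 8) in capitals.
mmu-miR-200c-3p: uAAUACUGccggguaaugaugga
mmu-miR-141-3p: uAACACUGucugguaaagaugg
The matching sites, CAGTATT and CAGTGTT, occurred in none of the annotated 3′ untranslated regions of the 13 coding transcripts of the 7 members. Of 4153 genes whose longest 3′ untranslated region was in the members' range of 141 to 428 bases, 2.29% held the first site and 3.42% the second. The microRNAs themselves were not among the counted genes, so the deletion could not be checked in these libraries.

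Promoters are shown for Wfdc2, Wfdc3 and Wfdc12, whose hormone-sensing-like levels were lower in cKO, and for the neighbours Wfdc17 and Wfdc18, whose highest levels lay in different classes. Each runs from 250 bases before to 50 after the RefSeq start on GRCm38.p6, in the direction of the gene. Their positions are chr2:164562465-164562764 (plus strand, the first of 2 promoters listed for Wfdc2), chr2:164743218-164743517 (minus) for Wfdc3, chr2:164190509-164190808 (minus) for Wfdc12, chr11:83703806-83704105 (plus) for Wfdc17 and chr11:83708754-83709053 (plus) for Wfdc18. Capitals mark matches, on either strand, to the nuclear receptor motif AGGTCA or the TATA box TATAAA.
Wfdc2: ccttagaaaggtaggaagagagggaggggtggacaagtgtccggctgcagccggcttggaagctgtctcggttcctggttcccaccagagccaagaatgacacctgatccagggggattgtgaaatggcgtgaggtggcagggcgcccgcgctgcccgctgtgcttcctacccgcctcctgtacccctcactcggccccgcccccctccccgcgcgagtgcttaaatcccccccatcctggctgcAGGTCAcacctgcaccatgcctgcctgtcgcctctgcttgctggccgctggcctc
Wfdc3: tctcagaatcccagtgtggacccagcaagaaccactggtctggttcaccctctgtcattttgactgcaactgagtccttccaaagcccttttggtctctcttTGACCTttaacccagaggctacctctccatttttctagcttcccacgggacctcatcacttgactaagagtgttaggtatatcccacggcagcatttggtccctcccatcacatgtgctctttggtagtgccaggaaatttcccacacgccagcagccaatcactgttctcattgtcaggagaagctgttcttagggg
Wfdc12: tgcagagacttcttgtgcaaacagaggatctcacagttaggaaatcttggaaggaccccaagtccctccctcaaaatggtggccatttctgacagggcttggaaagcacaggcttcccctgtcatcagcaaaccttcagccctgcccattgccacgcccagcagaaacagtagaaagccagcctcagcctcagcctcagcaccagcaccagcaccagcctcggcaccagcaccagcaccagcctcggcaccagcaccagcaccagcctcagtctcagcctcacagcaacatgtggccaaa
Wfdc17: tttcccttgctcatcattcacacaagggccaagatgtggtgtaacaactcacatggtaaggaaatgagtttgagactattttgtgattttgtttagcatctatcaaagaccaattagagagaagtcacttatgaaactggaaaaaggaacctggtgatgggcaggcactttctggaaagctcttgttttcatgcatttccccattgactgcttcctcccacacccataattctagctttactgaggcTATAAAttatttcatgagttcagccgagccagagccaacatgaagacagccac
Wfdc18: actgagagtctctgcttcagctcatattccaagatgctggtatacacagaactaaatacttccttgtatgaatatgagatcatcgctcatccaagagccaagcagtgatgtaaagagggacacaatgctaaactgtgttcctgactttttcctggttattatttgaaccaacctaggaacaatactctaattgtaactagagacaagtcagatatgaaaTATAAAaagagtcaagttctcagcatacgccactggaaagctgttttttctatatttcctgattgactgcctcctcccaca
The nuclear receptor motif was found once each in the windows of Wfdc2 (5 bases before the start) and Wfdc3 (148 bases before), and in 16.3% of all 32851 promoters. A TATA box began 31 bases before the start of Wfdc18 and 3 bases before the start of Wfdc17, and 13.6% of all promoters held one. The STAT5 element TTCNNNGAA (8.30% of promoters), the steroid receptor element ACANNNTGT (6.85%), the estrogen response element, GGTCA and TGACC with 3 bases between (0.07%), and the FOXA element TGTTTAC (3.65%) were not found in these 5 windows. None of these motifs overlaps another in the windows shown. Such matches describe letters and not binding.

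Across the classes the members had separate places. Wfdc2 was highest in hormone-sensing-like cells, Wfdc18 in luminal-progenitor-like cells and Slpi in basal-like cells, in both libraries. Wfdc3 and Wfdc12 were highest in luminal-progenitor-like cells of cKO but in hormone-sensing-like cells of Ctrl. Wfdc17 was highest in lymphatic-endothelial-like cells of cKO and had only 20 UMIs in all gated classes of Ctrl. That place rests on the gate, since no cluster was named lymphatic when classes were taken from clusters. Counted over the 7 members, 4 had the same leading class in both libraries, but 1 of these, Wfdc15b, rests on 1 UMI in cKO and 8 in Ctrl and marks nothing at this depth.

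**Figure D1:**
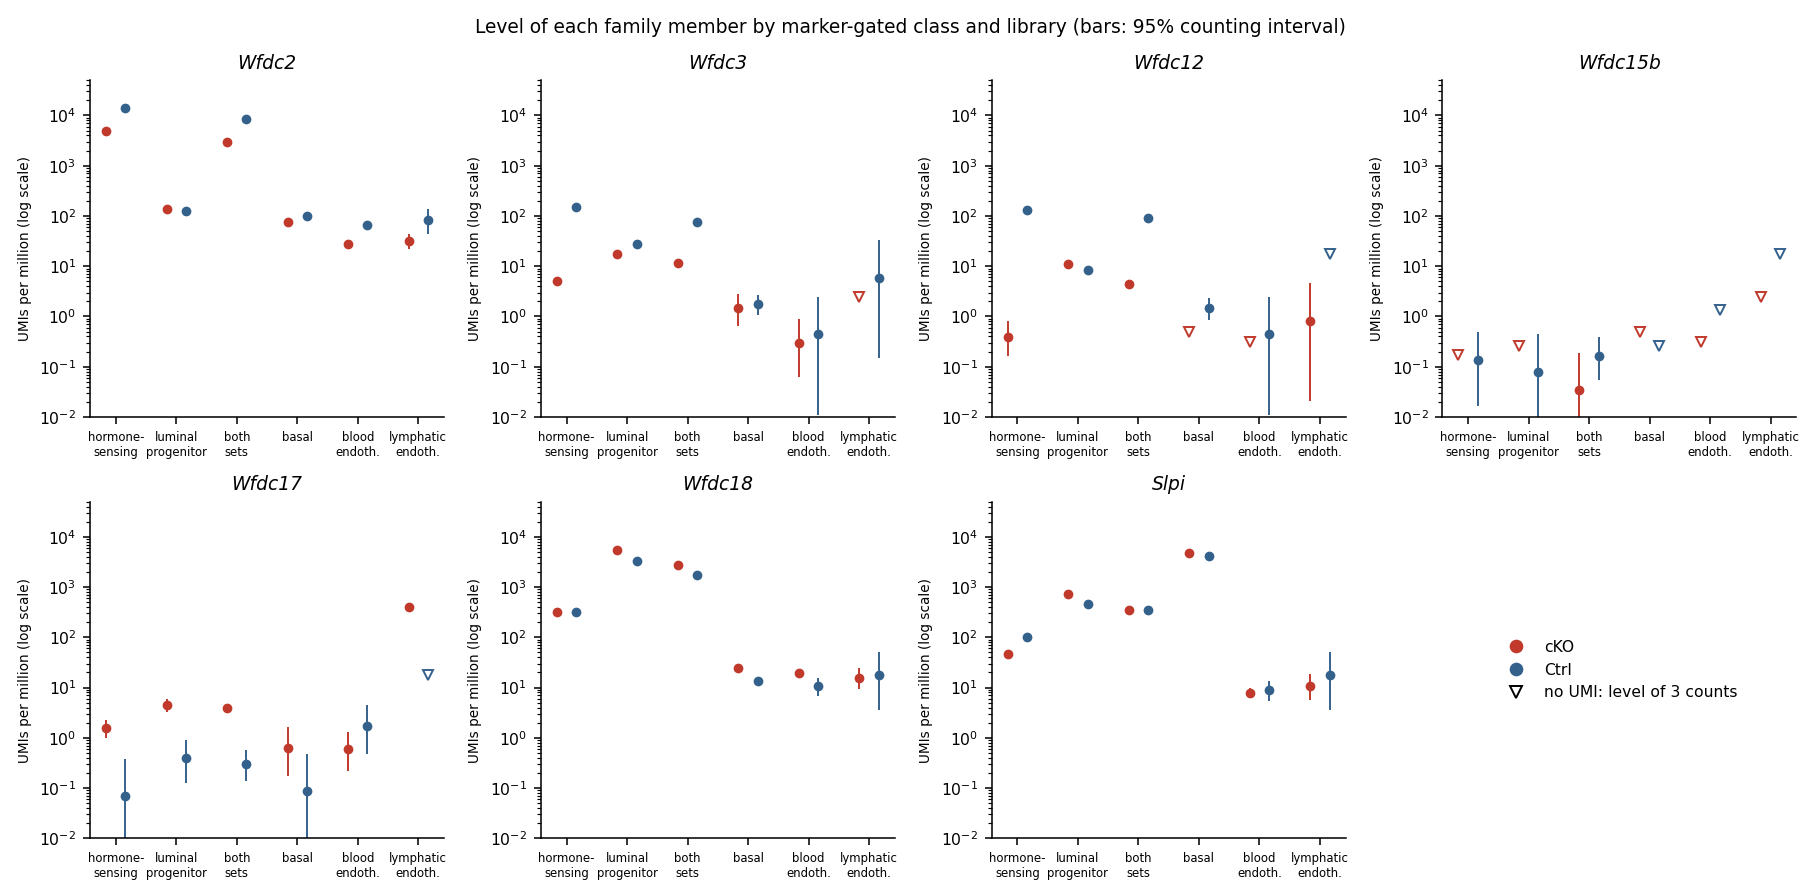
Level of each member in CPM, UMIs per 1000000 of the class (log scale), in 6 marker-gated classes, with cKO left of Ctrl and bars for the 95% Poisson interval. Open triangles stand at the level of 3 counts where no UMI was found. Wfdc2 peaks in hormone-sensing-like cells, Wfdc18 in luminal progenitors, Slpi in basal cells and Wfdc17 in cKO lymphatic cells, where it reached 407 CPM.

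Wfdc2, which encodes a secreted protein with WAP domains known in humans as HE4, a serum marker of ovarian cancer, was the member that marked hormone-sensing-like cells in both libraries. Its level there was 4923 CPM in cKO (95% Poisson interval 4890 to 4956) and 14115 CPM in Ctrl (14053 to 14176). It was 2.87-fold lower in cKO (2.84 to 2.89, conditional binomial interval), a log2 ratio of -1.52. The difference ran through the whole class. Per cell, the median was 43.9 UMIs per 10000 in cKO with quartiles of 28.1 and 63.3, and 115 in Ctrl with quartiles of 62.0 and 191. Thus the upper quartile of cKO cells stood near the lower quartile of Ctrl cells. After each cell was thinned to 1000 UMIs, which left out 4 and 2 shallower cells, 93.9% of cKO cells and 98.6% of Ctrl cells held a Wfdc2 UMI (99.3% and 99.8% unthinned).

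Outside this class Wfdc2 was low. Luminal-progenitor-like cells had 140.5 CPM in cKO and 127.5 CPM in Ctrl, a log2 ratio of 0.14 that became -0.72 with classes taken from clusters and -0.71 with a looser gate. Basal-like cells had 74.2 and 98.5 CPM. Blood-endothelial-like cells, which should lack the gene, had 27.5 and 67.3 CPM, or 0.559% and 0.477% of the hormone-sensing level, and 3.64% and 9.78% of them held a UMI after thinning, where the median cell had 23941 and 21862.5 UMIs. The median hormone-sensing-like cell had 12924 and 22127 UMIs. For comparison Prlr, the prolactin receptor and one of the gate genes, stood in blood-endothelial-like cells at 0.435% and 0.256% of its hormone-sensing level. In cells with both luminal marker sets Wfdc2 was at 2957 CPM in cKO and 8672 CPM in Ctrl, a log2 ratio of -1.55, close to that in hormone-sensing-like cells. Within hormone-sensing-like cells, Wfdc2 went with Ly6a (Pearson r 0.373 over 1192 cKO cells and 0.401 over 563 Ctrl cells), Cd9 (0.327 and 0.402) and Ly6d (0.417 and 0.302). It ran against Wfdc18 (-0.19 and -0.285). These correlations are descriptions, over cells that share a library and differ in depth.

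Wfdc3, a WAP-domain gene of the same cluster, separated the libraries more widely. In hormone-sensing-like cells it had 88 UMIs in cKO, 5.01 CPM (4.02 to 6.18), and 2156 UMIs in Ctrl, 149 CPM (143 to 156). That is 29.8-fold lower in cKO (24.1 to 37.3), a log2 ratio of -4.90 that ranks 32 from the lowest of 12347 genes in this class. A UMI was found in 5.54% of cKO cells and 53.5% of Ctrl cells, or in 0.421% and 11.2% after thinning. Blood-endothelial-like cells, with 0.520% of 385 cKO and 0 of 92 Ctrl thinned cells, give no usable contrast for the thinned cKO share. Their Wfdc3 level was 0.304 CPM in cKO (0.0626 to 0.888) and 0.440 CPM in Ctrl, and 0.777% and 1.09% of them held a UMI unthinned, below the hormone-sensing-like values of both libraries. In luminal-progenitor-like cells Wfdc3 was at 17.6 CPM in cKO and 27.2 CPM in Ctrl, a log2 ratio of -0.63 (-0.88 to -0.38), far smaller than the ratio among hormone-sensing-like cells. The difference between these class ratios was not tested. Foxj1, the regulator of motile cilia, had a UMI in 107 cKO and 5 Ctrl cells of the hormone-sensing class. Wfdc3 was at 12.4 CPM in those of cKO and at 11 CPM (2 UMIs) in those of Ctrl, against 4.18 and 151 CPM in the cells without Foxj1.

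Wfdc12, whose mouse product is known as an antibacterial WAP protein, had 7 UMIs in hormone-sensing-like cells of cKO, all in 1 of 1192 cells, and 1911 UMIs in those of Ctrl. The levels were 0.399 CPM (0.160 to 0.822) and 132 CPM (127 to 139), and the log2 ratio of -8.38 (-9.69 to -7.33) ranks 2 from the lowest of the 12347 genes. These intervals treat UMIs as independent, although they lay together in few cells, so they are too narrow for the sampling of cells. Unlike Wfdc2, this transcript sat in few cells. In Ctrl, 14.7% of hormone-sensing-like cells held a UMI (4.28% after thinning), 27 of 563 held at least 10, and the top 5% of cells held 94.0% of its UMIs, with up to 316 UMIs in 1 cell. Those 27 cells had 1450 CPM of Prlr, 1526 CPM of the hormone-sensing marker Cited1 and 14.9 CPM of the progenitor marker Aldh1a3. The other 536 Ctrl cells had 1186, 2282 and 12.2 CPM. Prlr and Aldh1a3 are gate genes whose levels were largely set by the gate, so they are no separate check of these cells. Wfdc2 was lower in the 27 cells, at 7995 CPM against 14540 CPM, and Wfdc3 was at 122 CPM against 151 CPM. No cKO cell of the class held 10 UMIs. The cut of 10 UMIs was set after the values were seen.

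Wfdc12 was not missing from cKO as a whole. Luminal-progenitor-like cells had 132 UMIs in cKO and 108 in Ctrl, 11.1 CPM (9.30 to 13.2) and 8.54 CPM (7.01 to 10.3), again in few cells, 4 of 753 and 3 of 513 with at least 10 UMIs. In cells with both luminal marker sets it was at 4.47 CPM in cKO and 92.9 CPM in Ctrl, a log2 ratio of -4.38. Basal-like cells had 0 UMIs in cKO, which allows up to 0.481 CPM, and 1.48 CPM in Ctrl.

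**Figure D2:**
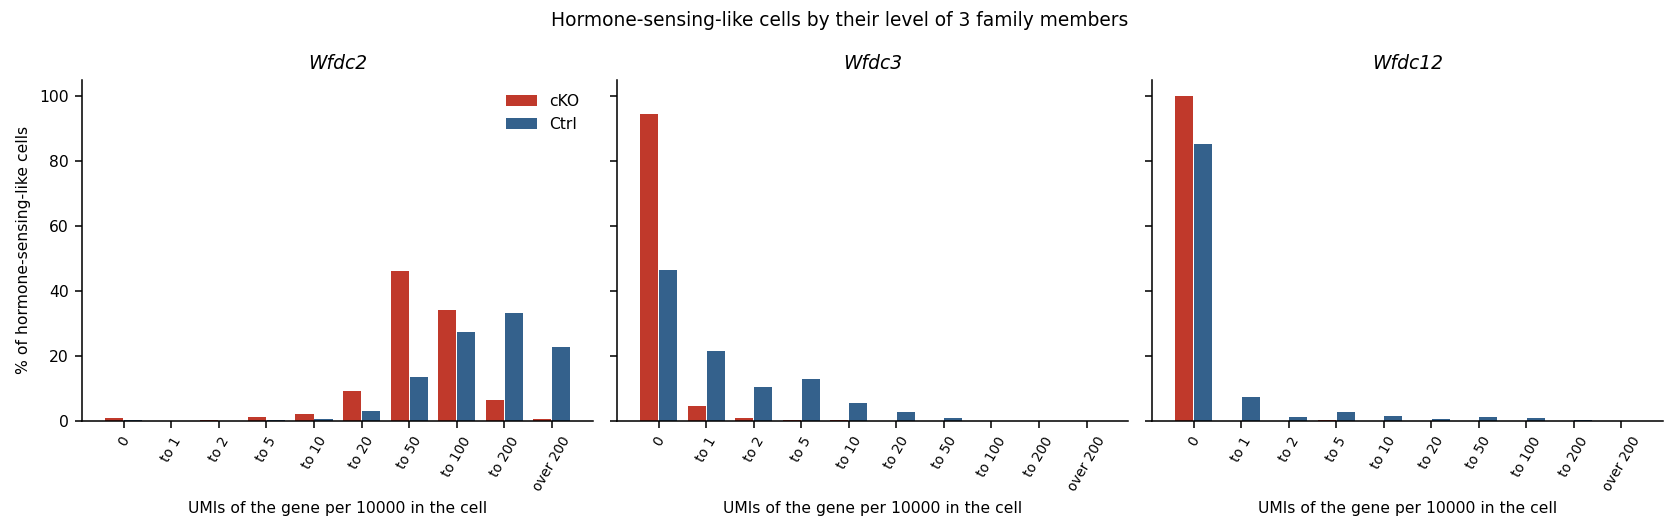
Share of hormone-sensing-like cells (%) by their UMIs of Wfdc2, Wfdc3 or Wfdc12 per 10000 UMIs, with cKO left of Ctrl; each bin includes its upper end. The Wfdc2 distribution of cKO lies to the left as a whole, Wfdc3 has UMIs in 5.54% of cKO and 53.5% of Ctrl cells, and Wfdc12 is at 0 in all but 1 cKO cell.

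Taking the family together in hormone-sensing-like cells, 6 members had at least 20 UMIs over both libraries, 4 were at least 1.5-fold lower in cKO (Wfdc2, Wfdc3, Wfdc12 and Slpi) and 1 was at least 1.5-fold higher (Wfdc17). Of all 12347 genes compared in this class, 18.1% were at least 1.5-fold lower and 13.3% higher, 31.4% in all. The median log2 ratio was -1.30 over the 6 members and -0.08 over all genes. The higher member, Wfdc17, had 27 UMIs against 1, a ratio of 22.2 with a log2 interval of 1.87 to 9.83, at a level of 1.54 CPM in cKO and 0.0693 CPM in Ctrl. Slpi was at 47.2 CPM in cKO and 100.5 CPM in Ctrl, a log2 ratio of -1.09 (-1.21 to -0.97), but 84.3% and 74.9% of its UMIs lay in the top 5% of cells, and with classes taken from clusters the ratio turned to 0.54. Leaving out the top 1% of cells left Ctrl without a Wfdc17 UMI. With Ctrl set at 3 counts the log2 ratio was then 0.47, under the limit.

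Wfdc18 marked the luminal progenitors. It is also known as Expi, an extracellular proteinase inhibitor. Its level in luminal-progenitor-like cells was 5456 CPM in cKO (5414 to 5498) and 3333 CPM in Ctrl (3301 to 3365), 1.64-fold higher in cKO, a log2 ratio of 0.71 (0.69 to 0.73). After thinning, 83.9% of cKO cells and 77.4% of Ctrl cells held a UMI (97.5% and 96.9% unthinned), against 1.82% and 1.09% of blood-endothelial-like cells. The median cell had 37.7 UMIs per 10000 in cKO and 25.4 in Ctrl, so the difference was seen in the typical cell too.

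In hormone-sensing-like cells Wfdc18 stood at 316 CPM in cKO and 322 CPM in Ctrl, a log2 ratio of -0.03 (-0.08 to 0.03), with 76.8% and 75.2% of its UMIs in the top 5% of cells and none in the median cell. That value depends on how the class is drawn. With a stricter gate it was 200 and 145 CPM, with a looser one 574 and 581 CPM, and with classes taken from clusters 714 CPM in cKO and 36.5 CPM in Ctrl (log2 4.29), where the cKO class takes in clusters 1 and 8 and the Ctrl class cluster 12. Basal-like cells had 24.5 and 13.3 CPM, 0.450% and 0.400% of the progenitor level. Aldh1a3 stood in that class at 0.271% and 0.263% of its progenitor level. It is a gate gene held low in basal-like cells by the gate, so it gives no baseline for Wfdc18 there.

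Progenitors differed among themselves in Wfdc18. It was higher in cells rich in Ltf, which encodes the iron-binding milk protein lactoferrin, at 7947 CPM in 202 cKO cells and 5553 CPM in 101 Ctrl cells with at least 5 Ltf UMIs per 10000, against 3810 CPM in 365 cKO cells and 2272 CPM in 275 Ctrl cells with fewer than 1. By Csn3, the kappa-casein gene and one of the gate genes, the order was the other way round: cells with at least 10 UMIs per 10000 had 3092 CPM in cKO and 2210 CPM in Ctrl, and cells with fewer than 2 had 7281 and 4987 CPM. Over single cells, r with Ltf was 0.369 in cKO and 0.403 in Ctrl, and r with Csn3 was -0.378 and -0.311. In each of the 4 subsets Wfdc18 was higher in cKO than in Ctrl. The subsets were drawn after values of these genes were seen.

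**Figure D3:**
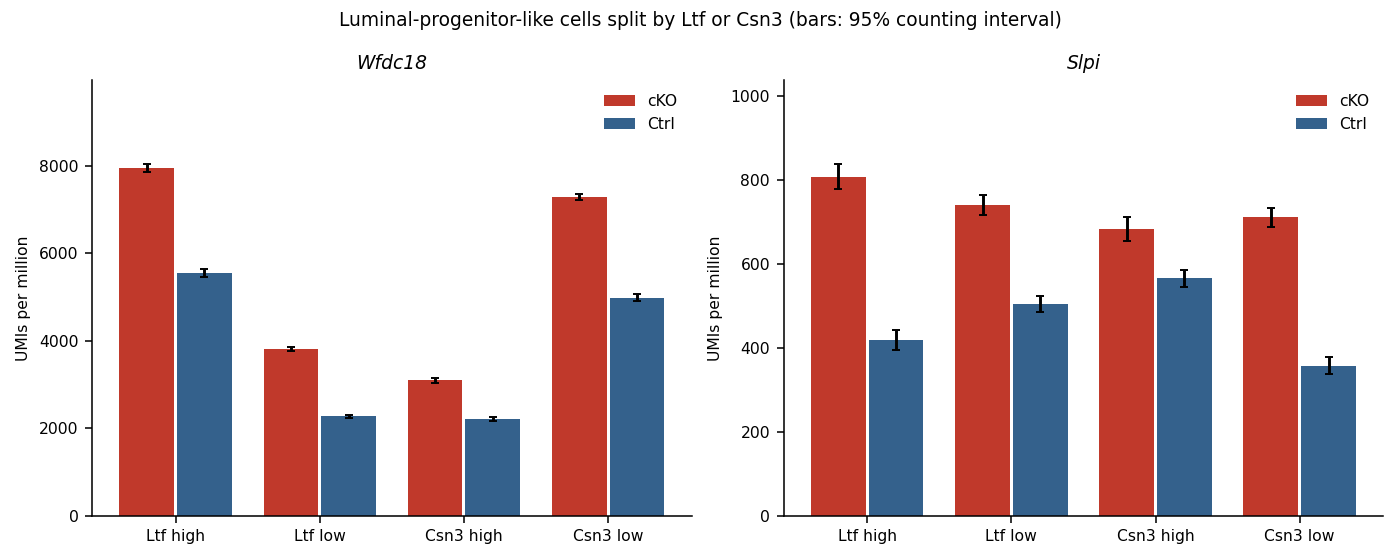
Wfdc18 and Slpi in luminal-progenitor-like cells split by Ltf (at least 5 or under 1 UMI per 10000) or Csn3 (at least 10 or under 2), in CPM, with cKO left of Ctrl and bars for the 95% Poisson interval. Wfdc18 is higher in the Ltf-high and Csn3-low cells of both libraries; Slpi differs less between subsets.

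Slpi, the secretory leukocyte peptidase inhibitor, which blocks neutrophil elastase and cathepsin G, was highest in basal-like cells. There it stood at 4844 CPM in cKO (4789 to 4899) and 4116 CPM in Ctrl (4079 to 4154), a log2 ratio of 0.23 (0.21 to 0.26), under the 1.5-fold limit. It was uneven among these cells: the median was 12.1 UMIs per 10000 in cKO with quartiles of 0.970 and 59.2, and 16.7 in Ctrl with quartiles of 2.82 and 51.9. The share of basal-like cells with a UMI after thinning was 56.1% in cKO and 64.4% in Ctrl (76.8% and 86.4% unthinned), against 0.260% of blood-endothelial-like cells in cKO and 0 of 92 in Ctrl. The mean was thus higher in cKO while the share and the median were lower. Across basal-like cells Slpi went with Chil1, a chitinase-like gene (r 0.266 over 741 cKO cells and 0.288 over 941 Ctrl cells), and with the chemokine gene Cxcl1 (0.226 and 0.303), and against Cnn1, which encodes the contractile protein calponin (-0.256 and -0.198).

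Luminal-progenitor-like cells were the next highest for Slpi, at 714 CPM in cKO (699 to 730) and 462 CPM in Ctrl (450 to 474), 14.7% and 11.2% of the basal level. The basal keratin gene Krt14, a gate gene, stood there at only 0.456% and 0.593% of its basal level. The ratio was 1.55 in favour of cKO (log2 0.63, 0.58 to 0.68). After thinning the share of cells with a UMI was 23.5% in cKO (20.5 to 26.7) and 23.6% in Ctrl (20 to 27.5), so the higher level in cKO came with no detectable difference in that share. Of cKO cells, 169 of 753 held at least 10 Slpi UMIs, and of Ctrl cells 138 of 513, and leaving out the top 1% of cells brought the log2 ratio to 0.56, just under the limit. Per cell, Slpi in progenitors went with Lcn2, which encodes the iron-scavenging protein lipocalin 2 (r 0.24 in cKO and 0.343 in Ctrl), and with Chil1 (0.226 and 0.336), and hardly with Ltf (0.0312 and 0.0128).

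In luminal-progenitor-like cells 6 members had at least 20 UMIs, of which 3 were at least 1.5-fold higher in cKO (Wfdc17, Wfdc18 and Slpi) and 1 was lower (Wfdc3). The shares over all 11383 genes of the class were 6.47% higher and 13.6% lower, 20% in all. The median log2 ratio was 0.51 over the members and -0.11 over all genes. Normalized by TMM instead of total counts, Wfdc3 was at -0.53 and no longer past the limit. In basal-like cells 4 members were compared and 1 was higher in cKO, Wfdc18, at a low level, and 0 were lower. There 9.77% of 10962 genes were higher and 9.15% lower, 18.9% in all. In cells with both luminal marker sets 2 of 6 members were higher and 3 lower, against 11.3% and 17.6% of 13246 genes, 28.9% in all. In blood-endothelial-like cells, 1 of 3 was higher (Wfdc18, 19.8 and 10.6 CPM) and 1 lower (Wfdc2), against 17.7% and 11.8% of 10273 genes, 29.5% in all.

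**Figure D4:**
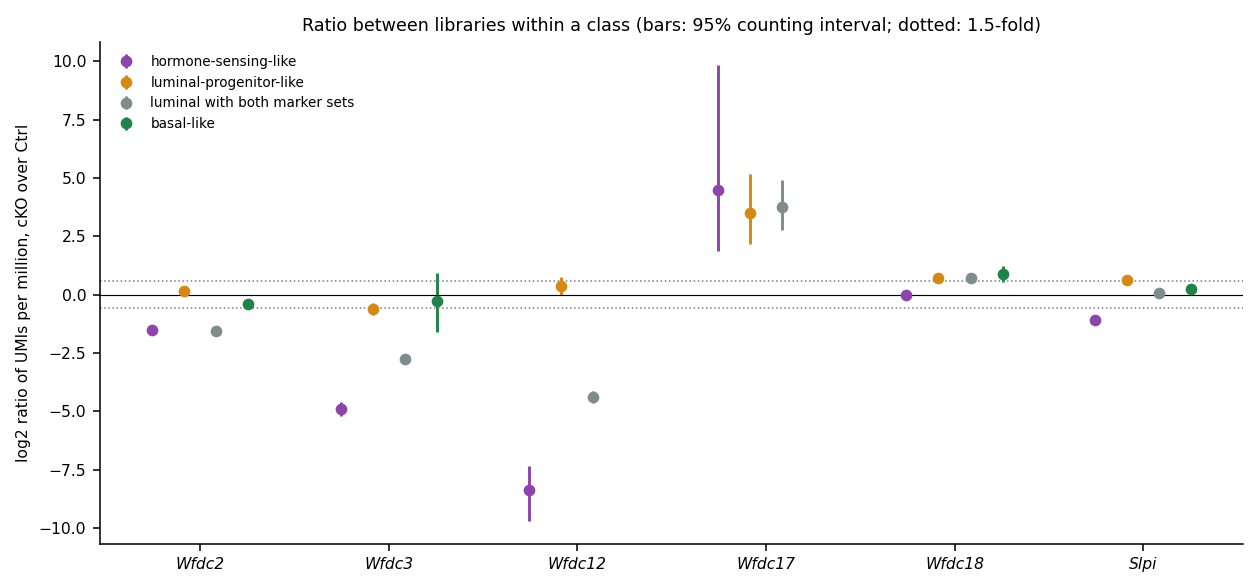
Log2 ratio of CPM, cKO over Ctrl, for each member with at least 20 UMIs in a class, with 95% conditional binomial intervals and dotted lines at 1.5-fold. Wfdc2, Wfdc3 and Wfdc12 lie below 0 in hormone-sensing-like cells and in cells with both marker sets and between -0.63 and 0.38 in luminal progenitors, where Wfdc18 and Slpi lie at 0.71 and 0.63.

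Wfdc17, the neighbour of Wfdc18, is known from activated macrophages, where its product is called AMWAP. Here its highest level was in few lymphatic cells of cKO. Lymphatic-endothelial-like cells of cKO held 493 UMIs, 407 CPM (372 to 445), which is 60.8% of the 811 Wfdc17 UMIs in all kept cKO cells. A UMI was found in 20 of these 99 cells, and 11 cells with at least 10 UMIs held 462 of the 493. All 20 held a UMI of Lyve1, the hyaluronan receptor of lymphatic vessels, 14 of Prox1, the lymphatic transcription factor, and 20 of Cdh5, which encodes VE-cadherin. All of these are gate genes that had a part in placing the cells, so they are no separate check of their identity. The macrophage markers Csf1r, Adgre1 and Cd68 had 0 UMIs in the 20 cells and Lyz2 had 1. The other listed myeloid markers, C1qa, C1qb and Aif1, were not counted separately in the 20 cells. All 7 myeloid markers summed to 12.4 CPM in the whole cKO lymphatic class. Marco, a scavenger receptor gene, was found in 18 of the 20 and in 17 of the other 79, at 2027 and 432 CPM, and Lyve1, a gate gene, was at 4144 and 1191 CPM. The median depth was 7408.5 UMIs in the 20 cells and 10313 in the 79. Mmrn1, another lymphatic marker, ran the other way, at 178 and 310 CPM.

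Ctrl had only 12 lymphatic-endothelial-like cells, with 0 Wfdc17 UMIs. A count of 3 there would be 17.5 CPM, and the cKO level was 23.3-fold that floor. This ratio is a point value and not a lower limit. At the cKO level 69.8 UMIs would be expected in Ctrl, but that figure treats UMIs as independent, while in cKO they lay in 20 of 99 cells, and Ctrl had 12 cells to look in. The lymphatic class was under the minimum of 50 cells in Ctrl and was not counted in the comparison above. In luminal classes Wfdc17 was low, at 4.46 CPM in cKO and 0.396 CPM in Ctrl among luminal-progenitor-like cells (53 and 5 UMIs, a log2 ratio of 3.50 with an interval of 2.18 to 5.18), with a UMI in 2.52% and 0.780% of cells. Wfdc18 stood at 5456 and 3333 CPM in the same cells, how reads shared by this alike pair were counted is not given in the sources used here, and the part of Wfdc18 reads in these low Wfdc17 values was not tested. Thinned to 1000 UMIs these shares were 0.398% and 0 of 513.

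Wfdc15b, an antibacterial family member in mouse, was nearly silent. It had 0 UMIs in basal-like and endothelial cells of both libraries and at most 5 in any gated class, so no level can be compared.

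The rest of the family added little. Of 17 other WAP-domain genes, all listed in the files, none reached 20 UMIs over both libraries in hormone-sensing-like, luminal-progenitor-like or basal-like cells. Wap itself had 9 UMIs in all kept cells. Wfdc1, a secreted growth inhibitor, reached 3.24 CPM in blood-endothelial-like cells of cKO and 1.76 CPM in those of Ctrl, all of it in cells under 100 Glycam1 UMIs per 10000. Wfikkn1, which encodes a binding protein of growth factors of the myostatin kind, was at 0.826 CPM in lymphatic-endothelial-like cells of cKO and at 5.83 CPM in the 12 such cells of Ctrl, each of which is 1 UMI. Wfdc15a reached 0.505 CPM in luminal-progenitor-like cells of cKO, and Wfdc13 0.277 CPM in hormone-sensing-like cells of Ctrl.

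The listed serine proteases of leukocytes, not all of them targets of Slpi, were nearly absent from these classes. Of 7, Elane and Tpsb2 had 0 UMIs. Ctsg, encoding cathepsin G, was at 9.21 CPM in blood-endothelial-like cells of cKO and 14.96 CPM in those of Ctrl, and Prtn3, encoding proteinase 3, at 2.40 and 2.35 CPM in basal-like cells. Cma1, Mcpt4 and Gzmb stayed at or below 0.285 CPM. Prtn3 was the 1 gene of the list that could be compared in luminal-progenitor-like and basal-like cells, and it was within 1.5-fold in both.

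Other protease inhibitors of the epithelium were plentiful, and of 11 listed, 2 were at least 1.5-fold higher in hormone-sensing-like cells of cKO and 2 lower among 9 compared, and 3 were higher and 1 lower among 10 in luminal-progenitor-like cells. Over all genes, 13.3% were higher and 18.1% lower in the first class, and 6.47% and 13.6% in the second. Cst3, which encodes the cysteine protease inhibitor cystatin C, was lower in cKO in each epithelial class, at 492 CPM in cKO and 2320 CPM in Ctrl among luminal-progenitor-like cells. Cstb, encoding cystatin B, was at 1617 and 1891 CPM there. Among hormone-sensing-like cells Spint2, which encodes an inhibitor of membrane-bound serine proteases, had 684 CPM in cKO and 716 CPM in Ctrl. Serpinb1a, an inhibitor of neutrophil proteases, was endothelial, at 1685 and 1227 CPM in blood-endothelial-like cells. The median log2 ratio of this list was 0.11 in hormone-sensing-like cells and 0.19 in luminal-progenitor-like cells.

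Most milk genes lay on the other side from Wfdc18 in progenitors. Of 12 compared in luminal-progenitor-like cells, 8 were at least 1.5-fold lower in cKO and 2 were higher, Ltf and Glycam1, with a median log2 ratio of -0.85, beside 13.6% lower and 6.47% higher over all genes of the class. Csn3 was at 743 CPM in cKO and 1166 CPM in Ctrl, and Mfge8, encoding lactadherin, at 1088 and 2245 CPM. Lcn2 was at 7454 and 7775 CPM, and Ltf, higher like Wfdc18, at 604 and 366 CPM. Glycam1, a mucin-like gene of milk and of high endothelial venules, was at 133700 CPM in blood-endothelial-like cells of cKO and 135600 CPM in those of Ctrl, and its 155 and 30.1 CPM in progenitors are small beside that level.

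Over the 10 class-by-library values of the 5 classes with at least 50 cells in each library, the genes whose log2(CPM + 1) pattern was most like Wfdc2 were Cited1 (r 0.998), Ccdc68 (0.994) and Arg1 (0.994), out of 11055 genes. For Wfdc3 they were Tmem209 (0.988), Atg4d (0.979) and Scara5 (0.974), and for Wfdc12 they were Wfdc3 (0.955), Sftpd (0.944) and Scara5 (0.942). Wfdc18 was most like Ltf (0.992), Plb1 (0.990) and Slc28a3 (0.989), and Slpi most like Cdca7 (0.990), Polr2h (0.988) and Col16a1 (0.988). Wfdc17, whose leading class is not among these 5, was most like Rel (0.816), Plau (0.815) and Habp4 (0.795). With 10 points from 2 libraries these values only rank likeness.

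The neighbourhood of the members was compared too. On chromosome 2, between Kcns1 and Pltp, 13 other protein-coding genes could be compared in hormone-sensing-like cells. Among them 2 were at least 1.5-fold lower in cKO, Zswim3 and Matn4, and 1 was higher, Pltp, the phospholipid transfer protein gene, with 209 UMIs against 3. That is 3 of 13, beside 31.4% of all genes of the class past the limit in either direction. Their median log2 ratio was -0.10. Sdc4, between Slpi and Wfdc2, was at 1346 CPM in cKO and 1178 CPM in Ctrl, and Pigt, next to Wfdc2, at 39.2 and 56.7 CPM. On chromosome 11, Ccl4 and Heatr6 beside Wfdc17 and Wfdc18 could be compared, with 21 and 0 UMIs for Ccl4 and log2 -0.14 for Heatr6. The window was chosen after the members' values were seen.

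**Figure D5:**
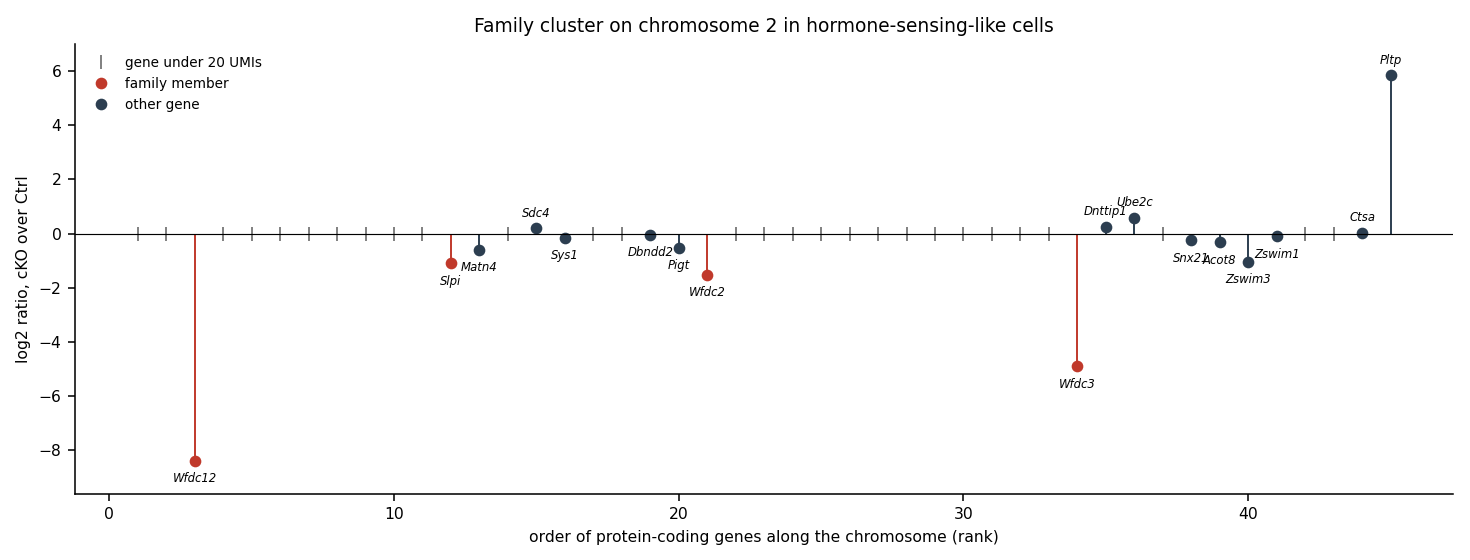
Log2 ratio, cKO over Ctrl, in hormone-sensing-like cells for protein-coding genes in their order on chromosome 2 around the family cluster; ticks on the line mark genes under 20 UMIs. Wfdc12, Wfdc3, Wfdc2 and Slpi lie below 0 (-8.38, -4.90, -1.52 and -1.09), while the compared genes between Wfdc12 and Wfdc3 that are no members lie from -0.61 to 0.19 and Pltp, at the end, lies at 5.84.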

How the data were processed

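Cells were profiled with 10x Chromium 3′ chemistry version 2. The authors deposited UMI counts per gene and barcode, aligned to mm10 with Cell Ranger 2 per the submitters' processing notes, while the file headers name software version 3.0.0. The 2 count matrices gave 103668011 UMIs in cKO and 95520633 in Ctrl. Kept barcodes had at least 500 genes and at most 10% mitochondrial UMIs, and Scrublet in scanpy 1.11.5 removed 55 and 27 called doublets, 1.00% and 0.79%.

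A cell was luminal at 40 or more UMIs per 10000 of Krt8, Krt18 and Krt19. It was hormone-sensing-like at 4 or more of Prlr, Esr1, Pgr and Foxa1 with under 1 of Aldh1a3, Csn3 and Elf5, luminal-progenitor-like the other way round, and in both sets at 4 or more of each. Of luminal cells, 22.5% in cKO and 22.2% in Ctrl lay between these limits. Basal-like cells needed 32 or more of Krt5, Krt14, Krt17 and Acta2, with under 1 of either luminal set and under 40 of the luminal keratins. Endothelial-like cells needed 8 or more of 7 endothelial genes, split by 4 lymphatic genes, with under 16 of the luminal keratins and under 16 of the basal genes. Luminal cells were also under 16 of the basal genes. Within each class, the UMIs of a library were added up and given as CPM, counts per 1000000 UMIs. Poisson, Clopper-Pearson and conditional binomial intervals (SciPy 1.17.1) cover counting error only. TMM factors came from edgeR 4.0.16. Genes needed 20 UMIs over both libraries of a class of at least 50 cells. The calculations were tested on simulated data.

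The members and lists were chosen with earlier results of these data known. The limit on the other luminal set was lowered from 2 to 1 after the members' levels had been seen, and the subsets were also chosen afterwards. Genes named in the text are the members, the 3 genes most like each member, and the listed genes with the highest CPM; Pltp, Sdc4, Pigt and the genes correlated per cell were named after their values were seen.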

Additional observations from a re-analysis of the deposited data

Results flagged for a closer look

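Slpi moved in opposite directions in the luminal classes, and this difference was not tested, with 1 library per group. The log2 ratio of cKO over Ctrl was 0.63 in luminal-progenitor-like cells (714 and 462 CPM) and -1.09 in hormone-sensing-like cells (47.2 and 100.5 CPM). In hormone-sensing-like cells the top 5% of cells held 84.3% of Slpi UMIs in cKO and 74.9% in Ctrl. With classes taken from clusters both ratios were above 0, at 0.51 among the progenitors and 0.54 among the hormone-sensing cells, so the opposite directions depend on how the classes are drawn.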

How the results depend on the processing

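No paired analysis was possible because each group is 1 library. The count of members with the same leading class, 4 of 7, was 3 with the stricter and the looser gate, where Wfdc15b dropped out, and 4 otherwise. The lymphatic place of Wfdc17 in cKO was not kept with classes from clusters. There no lymphatic class was named and Wfdc17 was highest in luminal-progenitor-like cells. The count past 1.5-fold in luminal-progenitor-like cells, 4, became 2 without the top 1% of cells and 3 with TMM, in both cases with 0 members lower. It became 5 with classes from clusters, the looser gate or no minimum of UMIs. In the last case the added member was Wfdc15b, with 0 UMIs in cKO and 1 in Ctrl. It counted as higher in cKO only because the 0 was set at 3 counts. In basal-like cells the count of 1 became 2 with the stricter gate, with classes from clusters and without the top 1% of cells, and 3 with no minimum of UMIs. The Slpi ratio in hormone-sensing-like cells reversed from -1.09 to 0.54 with classes from clusters; the cause was not tested. Of 128 single-gene alternatives, 116 stayed on their side of the limit, 5 no longer passed it, 6 newly passed it and 1 reversed. The sign was kept in 115. Apart from the Slpi reversal, the sign changes were in Wfdc2 and Wfdc12 in luminal-progenitor-like cells and Wfdc18 in hormone-sensing-like cells. The main ratios of these were within the limit. Some of the changed values passed it on the other side. With classes from clusters Wfdc18 went from -0.03 to 4.29 and Wfdc2 from 0.14 to -0.72. Wfdc2 was at -0.71 with the looser gate. Keeping called doublets added no cell to the hormone-sensing-like, luminal-progenitor-like or basal-like classes, so it says nothing of their stability. Its unchanged ratios are nevertheless included in the totals of 128, 116 and 115. In hormone-sensing-like cells the log2 ratio stayed between -1.74 and -1.45 for Wfdc2, between -5.35 and -4.15 for Wfdc3 and between -8.94 and -6.81 for Wfdc12, and in luminal-progenitor-like cells between 0.64 and 0.81 for Wfdc18. The Wfdc12 value of -8.94, from the stricter gate, sets a cKO count of 0 at 3 counts. TMM shifted ratios by 0.12 in cells with both luminal marker sets and by at most 0.10 in the other classes. The looser gate was chosen after seeing the data. Depth limits Wfdc15b, Wfdc17 outside lymphatic cells and Wfdc3 in basal-like cells. Median depth per cell was lower in cKO in every epithelial class, the Ctrl lymphatic class held 12 cells, and no replicate mouse or library was used here.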
